A study of Mus musculus with 3 samples.

Results

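Glycolysis turns glucose into pyruvate and lactate in the cytosol, and it yields ATP without oxygen. The 9 mRNAs described here encode enzymes of its shared trunk and its exit: glucose-6-phosphate isomerase (Gpi1), aldolase A (Aldoa), triosephosphate isomerase (Tpi1), glyceraldehyde-3-phosphate dehydrogenase (Gapdh), phosphoglycerate kinase 1 (Pgk1), phosphoglycerate mutase 1 (Pgam1), enolase 1 (Eno1), the liver and red cell pyruvate kinase (Pklr) and lactate dehydrogenase A (Ldha). They were picked by gene symbol, and each had 1 row among the 23361 genes of the tables. All 9 passed the filter on low values, an FPKM of 1 or more in any library, as 10792 genes did. FPKM is the number of fragments of a gene scaled by transcript length and by the mapped fragments of the library.

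Liver runs this pathway in both directions. It breaks glucose down after a meal and makes glucose when food is withheld, and several of the enzymes serve both directions. Hepatocytes hold their own isoforms at the controlled steps, such as the Pklr pyruvate kinase and the carrier GLUT2 (Slc2a2), while many other cell types use Aldoa, Pkm and GLUT1 (Slc2a1). Hypoxia-inducible factor 1, whose alpha subunit is Hif1a, binds a short motif with the core letters ACGTG and is known to activate many genes of the pathway when oxygen is low. Gapdh is also a standard reference gene for quantitative PCR (qPCR), and the study used it that way.

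The mice were labelled male C57BL/6J of 8 to 10 weeks and were fasted for 12 h before surgery under chloral hydrate, with 6 mice per group. Sham mice had surgery with no clamp, and their liver was removed 90 min later. In warm ischemia (WI) the vessels to part of the liver were clamped for 90 min, and in ischemia with reperfusion (IR) 90 min of clamping were followed by 2 h of restored flow. Each group has 1 mRNA library of whole liver tissue, and whether RNA of several mice went into it was not stated. There is no sham group matched to the IR group in time, so reperfusion and the longer time after surgery cannot be told apart. With 1 library per group no difference between groups has a replicate check and no test was made. The error given with each value is Cuffdiff's own 95% interval for 1 library, which does not hold the variation between mice. Whole tissue does not tell more RNA per cell from more cells of a type.

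Some facts of the libraries bear on every comparison with IR. The sham and WI libraries go against their labels in the genes of the sex chromosomes. Xist, the RNA that coats an inactive X chromosome, was at an FPKM of 18.9 in sham, 20.1 in WI and 1.29 in IR. The Y-linked Eif2s3y was listed at 0 in sham and WI and was at 13.2 in IR. All were labelled male, so sex and treatment cannot be told apart in the comparisons of IR with either of the others. Pgk1 lies on the X chromosome. The FPKM of all genes summed to 475754 in sham, 487912 in WI and 712423 in IR, and 20 genes of the major urinary proteins (Mup) took 2.33%, 2.11% and 12.6% of these sums. For 1 gene in sham, 1 in WI and 7 in IR the locus held more fragments than Cuffdiff processes, and such genes can be listed at 0. The sums, and any rescaling to a common sum, may therefore not cover the same genes. Rescaling each library to a common sum lowers each IR value against sham by 0.58 on the log2 scale, and rescaling by the median ratio over genes lowers it by 0.07. After rescaling to a common sum the median of all genes stood at -0.40 in IR against sham and in IR against WI. The direction of small differences with IR thus depends on the scale, and for the enzymes it is stated where the sign turned. Sums of FPKM over marker lists, and of Eno1 with its copy, are given as deposited only, and their direction with IR may also turn. No counts were used, so the number of fragments behind a value is unknown.

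Marker mRNAs of other cell types also differed between the libraries. All 6 neutrophil markers that passed the filter, of 7 listed, were at least 2-fold higher in IR than in WI, and the list's summed FPKM was 25.7 in sham, 19.5 in WI and 462 in IR. After rescaling to a common sum 5 of the 6 were at least 2-fold higher. Of all genes, 7.21% were past 2-fold in either direction in that comparison as deposited and 9.84% rescaled. The 6 Kupffer cell markers summed to 442, 221 and 138, the 6 endothelial markers to 124, 88.2 and 109, and the 5 erythroid markers to 751, 518 and 1976. Single markers did not all follow these sums. In IR against WI as deposited, 5 Kupffer cell markers were lower and 1 (Marco) was higher, while 3 endothelial markers were higher and 3 lower. Of the 7 hepatocyte markers, which summed to 22154, 17020 and 24044, albumin (Alb) was listed at 0 in all libraries because its locus held more fragments than Cuffdiff processes. Of the 5 skeletal muscle markers, 4 were at 0 in sham and 5 in WI and in IR.

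The study measured Gapdh a second way, as the endogenous control of its qPCR. Its primer pair is shown because every mRNA value from qPCR in the study is divided by what the pair amplifies. In the older mouse build NCBIM37, where Gapdh runs on the minus strand of chromosome 6, the forward primer matched the coding part of exon 5 of 7 (chr6:125112542-125112560) and the reverse primer that of exon 6 (chr6:125112299-125112318). Both are written in lower case, since no part of them stands out.
GAPDH-F: tggccttccgtgttcctac
GAPDH-R: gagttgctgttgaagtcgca
The product is 178 bases on the Gapdh transcript and 262 bases on the gene, where it spans 1 intron. Both primers also matched exactly, in facing directions within 2000 bases, at 43 other places of the genome, and at 41 of them the product was 178 bases, as on the transcript. The mouse genome is known to hold many processed pseudogenes of Gapdh, which are copies without introns.

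The coding sequence of Gapdh was itself the most copied of the set. All of its 31-base words recur elsewhere in NCBIM37, and 126 other places hold at least 100 of them. The words of Pgk1 and Pgam1 also all recur, with 4 and 3 such places. The share was 89.6% for Eno1 (6 places), 59.9% for Ldha (9 places), 50.3% for Gpi1 (1 place), 43.1% for Aldoa (3 places) and 31.8% for Tpi1 (2 places). Pklr stood apart with 1.24% and no such place. How fragments shared with a copy were divided is not given in the sources used here, so the values of all but Pklr could include or lack fragments of copies. The row for Gm5506, which RefSeq gives as another name of the enolase copy Eno1b, was at an FPKM of 22.9 in sham, 51.6 in WI and 60.6 in IR, with a lower bound of 0 in each library. Eno1 and Gm5506 together summed to 218, 243 and 280.

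The promoters of the enzymes were searched for the ACGTG core, because the pathway is a textbook target of hypoxia-inducible factor 1 and the WI and IR groups differ from sham in oxygen supply. The windows were RefSeq promoters of GRCm38.p6, 250 bases before to 50 bases after each annotated start, and the letters were sought on both strands. ACGTG, which also lies inside the longer CACGTG, was present in 5 of the 9 enzyme genes, Aldoa, Gapdh, Ldha, Pgam1 and Pgk1, against 21.8% of 27025 genes. By window it was in 6 of 15 windows of these genes against 19.6% of 32851. CACGTG was present in 1 of 9, Ldha, against 8.09% of genes. A match describes the letters and not binding, and the lack of one says nothing of the factor. The matches before a start are shown with the motif in capitals, written along the gene's strand, so that CACGT is ACGTG read on the other strand.
Ldha, 145 bases before the start, chr7:46845644-46845679: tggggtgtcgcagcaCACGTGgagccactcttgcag
Ldha, 48 bases before the start, chr7:46845741-46845776: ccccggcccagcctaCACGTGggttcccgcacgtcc
Ldha, 34 bases before the start, chr7:46845755-46845789: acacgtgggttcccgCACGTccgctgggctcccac
Aldoa, 126 bases before 1 of its starts, chr7:126799361-126799395: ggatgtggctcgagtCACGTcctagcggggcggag
Pgam1, 114 bases before the start, chr19:41911742-41911776: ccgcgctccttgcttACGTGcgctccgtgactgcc
Pgk1, 150 bases before the start, chrX:106186935-106186969: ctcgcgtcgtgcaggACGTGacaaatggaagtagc
Pgk1, 131 bases before the start, chrX:106186954-106186988: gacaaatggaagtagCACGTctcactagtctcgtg
In Gapdh the match lies 43 bases after the start. Ldha had the most matches, and the last pair of its windows overlap.

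The enzymes are taken in the order of the pathway, with positions in mm10. Gpi1 (chr7:34201327-34230305) interconverts glucose-6-phosphate and fructose-6-phosphate. Its FPKM was 49.7 in sham (95% bounds 25.2 to 74.2), 53.0 in WI (26.7 to 79.3) and 65.8 in IR (32.5 to 99.2). The 3 intervals overlapped, and Gpi1 was nearly the same in sham and WI and higher in IR on the deposited scale, but lower in IR than in either by -0.23 (against WI) and -0.17 (against sham) after rescaling to a common sum.

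Aldoa (chr7:126795234-126800447), which splits fructose-1,6-bisphosphate and is the aldolase of muscle and most non-liver cells, was at 51.7 in sham (26.5 to 76.9), 44.1 in WI (22.7 to 65.5) and 103.9 in IR (48.8 to 159). IR was the high library and sham and WI were close to each other, and the intervals still overlapped. Tpi1 (chr6:124808941-124814296), which interconverts the triose phosphates, was at 169.6 in sham (77.5 to 262), 219.8 in WI (95.6 to 344) and 241.7 in IR (103.9 to 380). Sham was the low library for Tpi1 as deposited, although after rescaling to a common sum IR was below sham by -0.07, and the intervals overlapped over most of their length.

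Gapdh (chr6:125161852-125165583), which couples the oxidation of glyceraldehyde-3-phosphate to NADH, was at 850 in sham (287 to 1413), 1231 in WI (344 to 2118) and 1696 in IR (378 to 3015). As deposited sham was below WI and WI below IR, while IR was below WI by -0.08 after rescaling to a common sum, and the intervals overlapped, with the WI value but not the IR value inside the sham interval. Its bounds were also the widest of the set relative to the value, corresponding to a coefficient of variation of 33.1% in sham, 36.0% in WI and 38.9% in IR, against a median over all genes of 26.0% in each library.

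Pgk1 (chrX:106187124-106203699), which makes the first ATP of the pathway, was at 194 in sham (88.0 to 299), 230 in WI (102 to 358) and 243 in IR (106 to 380). Pgam1 (chr19:41911871-41918665), which moves the phosphate of phosphoglycerate, was at 65.3 in sham (33.9 to 96.7), 78.2 in WI (40.0 to 116) and 99.2 in IR (49.6 to 149). Eno1 (chr4:150237197-150248873), which makes phosphoenolpyruvate, was at 195 in sham (79.3 to 311), 191 in WI (64.4 to 318) and 219 in IR (74.2 to 365). As deposited Eno1 was nearly level, and after rescaling to a common sum it was at -0.34 in IR against WI and -0.41 in IR against sham. Pgk1 and Pgam1 were lowest in sham and highest in IR as deposited but highest in WI after rescaling to a common sum, and the bounds overlapped for each.

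Pklr (chr3:89136142-89146594) makes pyruvate and ATP at an irreversible step that the liver turns off when it makes glucose. It was at 51.4 in sham (25.4 to 77.3), 82.6 in WI (38.7 to 127) and 55.0 in IR (27.9 to 82.0). As deposited it was the only one of the 9 whose highest value was in WI, with sham and IR nearly equal. After rescaling to a common sum Gapdh, Pgk1, Pgam1, Gpi1 and Tpi1 were also highest in WI, and Pklr in IR was -0.47 from sham. The intervals of Pklr overlapped. Ldha (chr7:46845804-46855627) converts pyruvate to lactate and restores NAD for the Gapdh step. It was at 278 in sham (111 to 446), 299.6 in WI (114 to 485) and 516 in IR (161 to 871), so that IR was the high library and the others were close together, again with overlapping intervals.

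**Figure D1:**
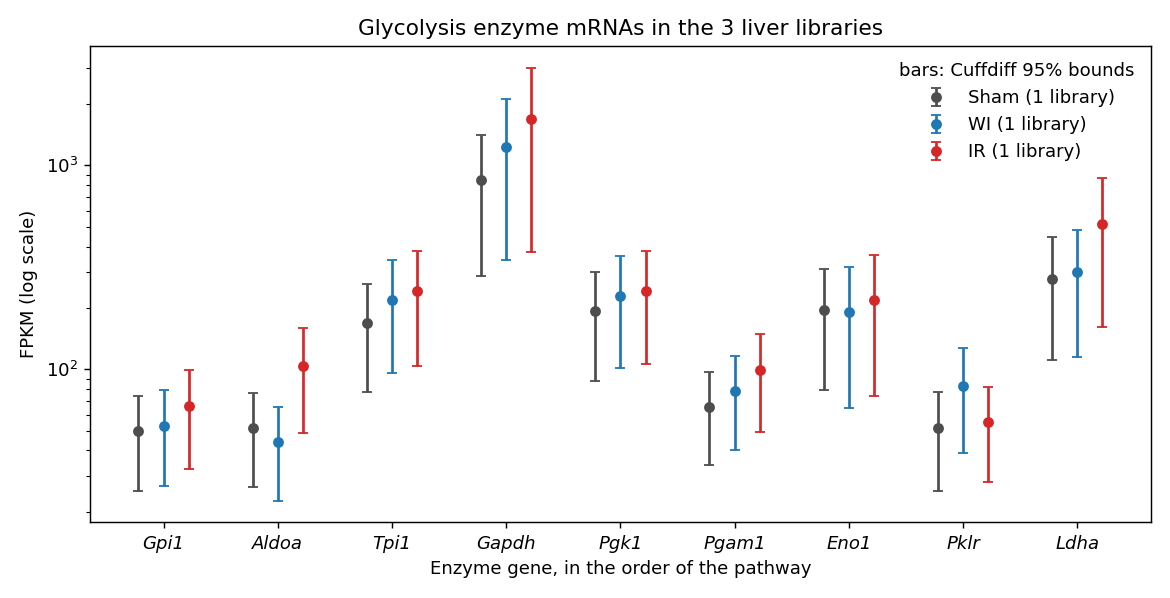
FPKM of the 9 glycolysis enzyme mRNAs (y axis, log scale) in the sham, WI and IR libraries (1 each), ordered along the pathway, with Cuffdiff's 95% bounds as bars. Gapdh lies above the others in each library, from 850 in sham to 1696 in IR, Pklr is highest in WI at 82.6, and the bars of the 3 libraries overlap for every gene.

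Levels can be compared between these genes because FPKM is per length. The order was led by Gapdh and then Ldha in each library, and Gapdh held 44.6% of the summed FPKM of the 9 genes in sham, 50.7% in WI and 52.3% in IR. Among all genes Gapdh ranked 74 in sham, 50 in WI and 57 in IR. Eno1, Pgk1 and Tpi1 formed a middle group, from 169.6 to 243, and Gpi1, Aldoa, Pklr and Pgam1 a low group, from 44.1 to 103.9. The last place went to Gpi1 in sham, Aldoa in WI and Pklr in IR. In no library did the bounds of neighbours in this order separate, and this includes the step from Gapdh to Ldha. The summed FPKM of the 9 genes was 1905, 2429 and 3241, and without Gapdh it was 1055, 1199 and 1544. The sum was 1.70 times higher in IR than in sham, and that of all genes 1.497 times.

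The first comparison, WI against sham, asks what ischemia alone left in the mRNA. Changes are differences in log2(FPKM + 1), and each ± is a standard error (SE) that was derived from the bounds of the pair of libraries. Of the 9 genes, 7 were higher in WI, where 52.5% of all genes were, and the exceptions were Aldoa (-0.22 ± 0.49) and Eno1 (-0.03 ± 0.64). Pklr had the largest difference of the set, 0.68 ± 0.52, and was the single member past 1.5-fold, a size that 7.41% of all genes reached. Gapdh came next with 0.53 ± 0.71 and Tpi1 with 0.37 ± 0.56. None of the 9 reached 2-fold, which 1.85% of all genes did, and none had separate bounds, which 0.676% did. The median over the 9 was 0.25 and that over all genes 0.02. This comparison did not depend on the scale, since the rescalings moved its values by at most 0.07.

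The second comparison, IR against WI, asks what reperfusion added. Aldoa was 1.22 ± 0.51 higher on the log2 scale and was the only one past 2-fold, beside 7.21% of all genes. After rescaling to a common sum it was 0.68 higher, and the only one past 2-fold was then Pklr, which was lower, beside 9.84% of all genes. Ldha was 0.78 ± 0.67 higher (0.24 rescaled), which made 2 members past 1.5-fold beside 19.8% of all genes. Pklr was the only one lower on the deposited scale, by -0.58 ± 0.52, and by -1.11 rescaled. Thus 8 of 9 were higher in IR on the deposited scale, beside 52.4% of all genes, but only Aldoa and Ldha were after rescaling to a common sum, where 17.5% of all genes were. Gapdh turned with the scale, at 0.46 ± 0.76 as deposited and -0.08 rescaled to a common sum, and 0.08 with the Mup genes left out of that sum. Bounds separated for none of the 9, and for 3.61% of all genes. The median was 0.31 for the 9 and 0.03 for all genes, or -0.23 and -0.40 after rescaling.

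The third comparison, IR against sham, spans the whole procedure and shares its libraries with the other comparisons. All 9 were higher in IR as deposited, beside 54.4% of all genes, while after rescaling to a common sum only Gapdh (0.41), Aldoa (0.42), Ldha (0.31) and Pgam1 (0.02) were, beside 18.2% of all genes. As deposited, Gapdh was higher by 0.996 ± 0.74, Aldoa by 0.99 ± 0.51, Ldha by 0.89 ± 0.66 and Pgam1 by 0.60 ± 0.49. These 4 passed 1.5-fold, as did 23.8% of all genes. They and Pgk1 (0.33 ± 0.56) are the genes with ACGTG in a promoter window, and whether these letters bear on the values was not tested. Tpi1 (0.51) and Gpi1 (0.40), which have no match, lay above Pgk1 as deposited. After rescaling to a common sum Pgk1 was at -0.25. None passed 2-fold on either scale, as 7.5% of all genes did as deposited, although Gapdh and Aldoa were just short of it. The remaining 5 lay between 0.10 (Pklr) and 0.51 (Tpi1). Bounds overlapped for all 9, and were apart for 3.82% of all genes. The median was 0.51 for the 9 and 0.05 for all genes. Relative to the median of all genes, Gapdh was 0.94 higher as deposited and 0.82 after rescaling to a common sum, and 9 and 7 of the 9 lay above that median, with Eno1 and Pklr below it in the second case.

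**Figure D2:**
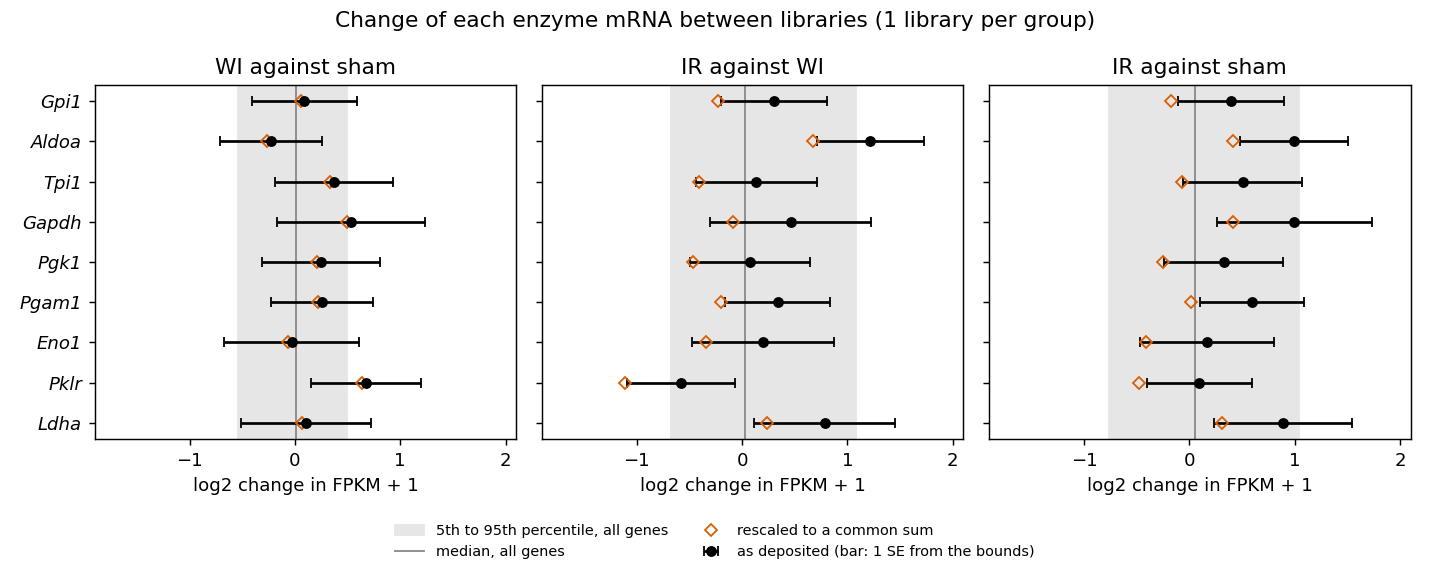
Difference of each enzyme mRNA in log2(FPKM + 1) (x axes) for the 3 pairs of libraries, as deposited (black, bar of 1 SE from the bounds) and rescaled to a common sum (open diamonds), with the 5th to 95th percentile of all genes as deposited shaded and their median as a line. As deposited, Aldoa lies beyond the shaded range in IR against WI (1.22), and Pklr (0.68) and Gapdh (0.53) lie beyond it in WI against sham.

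Several steps have a second enzyme, and the share of each isoform within a library does not depend on the scale. Pkm, the pyruvate kinase of most other tissues and of dividing cells, was at 15.2 in sham (7.79 to 22.7), 12 in WI (6.12 to 17.9) and 26.6 in IR (13.2 to 40.0). It was higher in IR than in WI by 1.09 ± 0.48, and by 0.56 after rescaling to a common sum. Pklr made up 77.1% of Pklr and Pkm together in sham, 87.3% in WI and 67.4% in IR, so WI had the highest share of the liver isoform and IR the lowest. Ldha made up 99.2%, 99.3% and 99.6% of Ldha and Ldhb, and Eno1 between 99.3% and 99.5% of Eno1, Eno2 and Eno3. The enolase copy Gm5506, at 22.9, 51.6 and 60.6, was left out of this share, and with it the share of Eno1 would be lower. In IR against WI as deposited, Pkm was the only gene past 2-fold among the 6 of 12 other isoenzymes that passed the filter. Of all genes 7.21% were past it, and the bounds of Pkm overlapped. After rescaling to a common sum 0 of the 6 were past 2-fold, beside 9.84% of all genes. Ldhd, also among the 6, was at 45.7, 54.9 and 65.9, and turned from 0.26 to -0.28 in IR against WI with that rescaling. Neutrophils, whose markers were also higher in IR, are known to use Pkm and Aldoa, and their part in these values was not tested.

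Phosphofructokinase commits sugar phosphate to the pathway between the Gpi1 and Aldoa steps. Of phosphofructokinase and its regulators, 6 of 7 genes passed and 1 differed 2-fold between IR and WI as deposited, as did 7.21% of all genes. That was Pfkfb3, which makes the activator fructose-2,6-bisphosphate, at 3.21 in sham (1.501 to 4.93), 3.44 in WI (1.68 to 5.20) and 14.9 in IR (7.36 to 22.3). Its bounds in IR lay apart from those in both other libraries, and it was 1.84 ± 0.45 above WI, or 1.33 after rescaling to a common sum. The liver form of the same enzyme, Pfkfb1, went the other way, at 20.4 (10.9 to 29.8), 12.9 (6.79 to 19.0) and 9.95 (5.12 to 14.8). Its bounds overlapped in all comparisons, and it was at -0.35 ± 0.45 in IR against WI. It was also past 2-fold in IR against sham (-1.49) after rescaling to a common sum, beside 11.5% of all genes. Pfkl, the liver phosphofructokinase, was at 7.52, 8.38 and 9.28, and turned from 0.13 to -0.35 in IR against WI with that rescaling.

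Carriers bring glucose into the cell and move lactate across its membrane. Of the 8 carrier genes listed, 7 passed, and 4 of them were at least 2-fold higher in IR than in WI with bounds that did not overlap. Of all genes, 7.21% were past 2-fold in that comparison and 3.61% had separate bounds. Slc2a1, the GLUT1 glucose carrier, was at 6.01 in sham (3.04 to 8.99), 4.405 in WI (2.14 to 6.67) and 23.7 in IR (12.7 to 34.7), a difference to WI of 2.19 ± 0.44. Slc16a1, the monocarboxylate carrier MCT1, was at 9.37, 8.29 and 24.9 (1.48 ± 0.45), and Slc16a3, the lactate exporter MCT4, at 0.259, 0.314 and 2.48 (1.41 ± 0.35). Slc2a3, the GLUT3 carrier, was at 0.266, 0.194 and 1.53 (1.08 ± 0.27). After rescaling to a common sum these 4 were still higher than in WI, Slc2a1 by 1.67, Slc16a1 by 0.96, Slc16a3 by 1.02 and Slc2a3 by 0.77.

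Among the carriers that passed, Slc2a2 and Slc16a7 went the other way. Slc2a2, the GLUT2 carrier, was at 133 in sham, 163 in WI and 92.0 in IR, and Slc16a7, MCT2, at 46.4, 45.6 and 24.03. Their IR values were below those of WI by -0.82 ± 0.54 and -0.90 ± 0.46 as deposited, with overlapping bounds, and by -1.36 and -1.41 after rescaling to a common sum. On that scale 2 carriers were at least 2-fold higher in IR than in WI (Slc2a1 and Slc16a3) and 2 at least 2-fold lower (Slc2a2 and Slc16a7), beside 9.84% of all genes past 2-fold in either direction. Slc2a2 held 95.5% of the summed FPKM of Slc2a1, Slc2a2 and Slc2a3 in sham, 97.3% in WI and 78.5% in IR. Bsg, the chaperone of MCT1 and MCT4, was at 214, 234 and 280, with a lower bound of 0 in each library, and turned from 0.26 to -0.29 in IR against WI with the rescaling. Slc2a3 and Slc16a3 are also carriers of neutrophils, whose markers were higher in IR, and their part in these values was not tested.

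**Figure D3:**
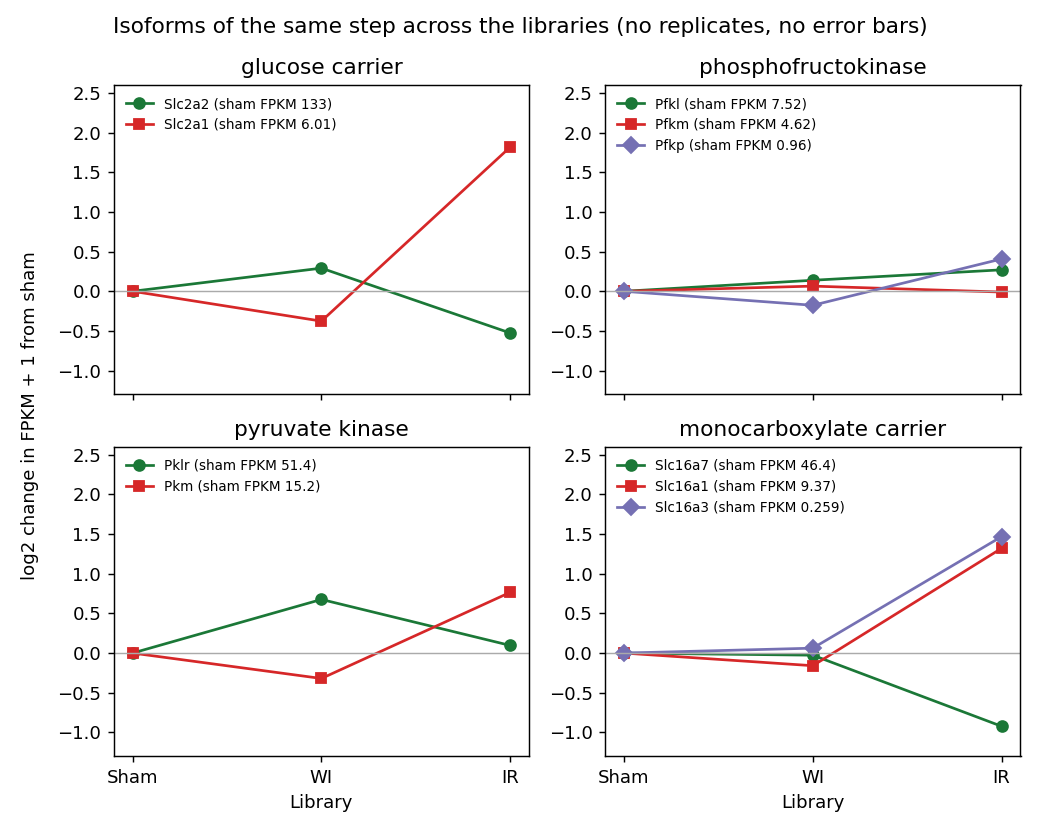
Difference from sham in log2(FPKM + 1) (y axis) of the isoforms of 4 steps in the sham, WI and IR libraries (x axis, 1 library each), with the sham FPKM of each gene in the legend. In IR Slc2a2, Pklr and Slc16a7 lie below their WI values while Slc2a1, Pkm, Slc16a1 and Slc16a3 lie above theirs.

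At the far end, the pyruvate dehydrogenase complex takes pyruvate into the mitochondrion's oxidation, and its kinases shut it. Of the 13 genes of the complex, its kinases, phosphatases and the pyruvate carrier, 11 passed, and Pdk4 was the single one past 2-fold as deposited. It differed by -3.0 ± 0.51 between WI and sham, where 1.85% of all genes were past 2-fold. Between IR and WI it differed by 2.24 ± 0.49, where 7.21% of all genes were. After rescaling to a common sum Pdk4 was at 1.71 in IR against WI, and Pdk1 (-1.49), Pdk2 (-1.04) and Pdp2 (-1.09) were past 2-fold in the other direction. On that scale 9.84% of all genes were past 2-fold in either direction. The mitochondrial pyruvate carrier Mpc1 had FPKM values of 330, 324 and 302 in sham, WI and IR. Pdk1, a kinase of the complex and a known target of hypoxia-inducible factor 1, was at 25.7 (13.2 to 38.1), 26.2 (13.5 to 39.0) and 12.7 (6.77 to 18.6). Its IR value was thus 0.99 ± 0.46 below WI, with overlapping bounds. Slc2a1 and Pfkfb3, which are also known targets of that factor, were higher in IR than in WI. The part of the factor in these values was not tested.

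Of the 7 transcription factors listed for the pathway, all passed. Hif1a was at 10.4 in sham (5.57 to 15.2), 10.1 in WI (5.43 to 14.8) and 23.2 in IR (12.1 to 34.2), 1.12 ± 0.45 above WI, or 0.60 after rescaling to a common sum. The protein is known to be set mainly by its breakdown, which mRNA does not show. Myc, which also activates Ldha and carriers, was at 7.42, 2.03 and 14.5, and its bounds in IR lay apart from those in WI. Srebf1, the lipogenic factor that follows insulin in liver, was at 33.7, 77.7 and 57.7, 1.18 ± 0.53 above sham in WI. Mlxipl, the glucose-sensing factor that drives Pklr, was at 16.2, 21.6 and 13.5. Epas1 was at 34.9, 26.3 and 30.2, with overlapping bounds. It differed from sham by -0.40 ± 0.50 in WI and -0.20 ± 0.50 in IR. In IR against WI, Epas1 turned from 0.19 to -0.33 after rescaling to a common sum. Srebf1, Mlxipl and Pklr each had their highest value in WI, though with overlapping bounds, and a link between them was not tested.

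Gapdh was then set beside 16 other genes that are in common use as qPCR references. Between its lowest and highest library, Gapdh spanned 1.996 times in FPKM as deposited, second of the 17 to Actb with 2.29 times. Rplp0 came next with 1.64 times. Gusb (1.18), Tfrc (1.23) and Pgk1 (1.25), a member of both sets, spanned least. This order did not hold after rescaling to a common sum, where Polr2a (2.06), Sdha (1.89), Tfrc (1.79) and Gusb (1.71) spanned most, Gapdh was sixth with 1.41 and Rpl13a spanned least with 1.03. In WI against sham the ratio of Gapdh, 1.45, was the highest of the 17, ahead of Sdha with 1.22. Among the 3515 genes that reached an FPKM of 10 in every library, 90.3% spanned less than Gapdh as deposited, and the median was 1.36 times. After rescaling to a common sum 44.8% did, and the median was 1.46 times. By the deposited values 94.0% spanned less than Aldoa, 87.8% less than Ldha, 76.9% less than Pklr, 69.0% less than Pgam1, 57.6% less than Tpi1, 44.7% less than Gpi1, 32.4% less than Pgk1 and 14.3% less than Eno1. After rescaling, Pklr had the widest span of the 9, 2.20 times, with 88.8% of these genes below it. Of the 17 references 13 were higher in IR than in sham as deposited, beside 54.4% of all genes, and 4 after rescaling to a common sum, beside 18.2%.

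**Figure D4:**
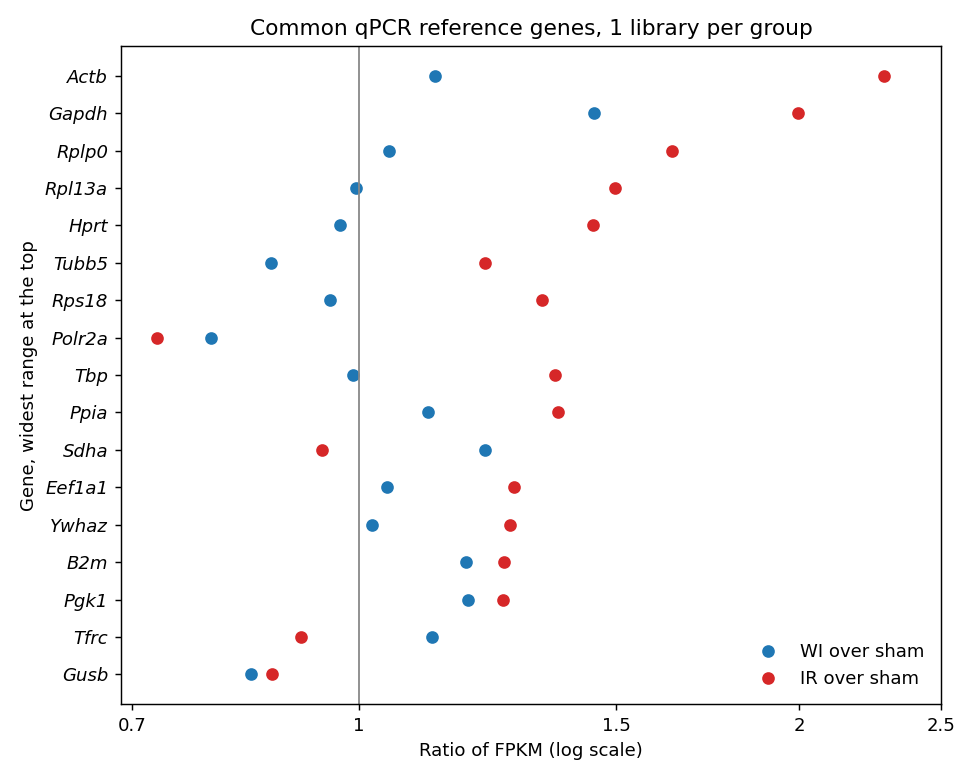
Ratio of deposited FPKM to sham (x axis, log scale) of 17 genes used as qPCR references in WI (blue) and IR (red), 1 library each, ordered by the span between the lowest and the highest library. Gapdh has the highest WI ratio (1.45) and the second highest IR ratio (1.996), after Actb with 2.29.

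Dividing an mRNA by a reference passes the reference's own difference on, and the size of this was computed for the 4 mRNAs that the study amplified. All values are ratios of FPKM and none is a qPCR value. In IR against sham, Fos, an immediate early transcription factor, had a ratio of 4.89, which became 2.45 over Gapdh and 2.14 to 6.71 over the other 16 references, with a median of 3.84. Myd88, the adaptor of Toll-like receptors, had 3.048, which became 1.53 over Gapdh and 1.33 to 4.18 over the others. Lpin1, a phosphatidate phosphatase, was 6.34-fold lower in IR than in sham, and 12.6-fold lower over Gapdh. Tgtp1, an interferon-induced GTPase, had 0.621, which became 0.311 over Gapdh. In that comparison 1 of the 16 others gave a lower value than Gapdh.

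In WI against sham none of the 16 others gave a lower value than Gapdh did. The ratio of Fos went from 3.48 to 2.41 over Gapdh, that of Tgtp1 from 4.77 to 3.29 and that of Lpin1 from 0.175 to 0.121. Myd88 had 0.856, and 0.592 over Gapdh. A ratio of this kind does not depend on the scale of the libraries. The direction stayed the same for all 4 genes over Gapdh in both comparisons with sham. In IR against WI the ratio of Fos was 1.40 and became 1.02 over Gapdh and 0.692 to 1.81 over the others, so its direction depended on the reference. The same held for Lpin1 in IR against WI (0.445 to 1.165 over the others) and Myd88 in WI against sham (0.702 to 1.08). With no reference, the log2 difference of Fos in IR against WI turned from 0.47 as deposited to -0.06 after rescaling to a common sum.

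The genes whose pattern was most like that of Gapdh were sought among the same 3515 genes, by the distance over the 2 log2 differences, WI minus sham and IR minus WI, across the 3 libraries. The nearest were Gstm4 (distance 0.0195, FPKM 17.2, 25.7 and 35.6), Hist1h2bg (0.0483), Gm12070 (0.0620), Agxt (0.0832) and Hist1h2bc (0.0848), against a median distance of 0.656. With 3 libraries many genes lie close to any pattern by this measure. None of the other 8 enzymes was among the 5.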

How the data were processed

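The authors mapped read pairs to mm10 with TopHat2 (2.0.9) and computed gene FPKM with Cuffdiff of Cufflinks (2.0.2) at default parameters. Per the labels, 1 FPKM table was deposited for each group, with 95% bounds (value ± 2 SD) and a status, and the annotation is not given in the sources used here. FPKM is by definition scaled by mapped fragments, and how the deposited libraries were scaled to each other was not settled. Among low genes, with a lower bound of 0 in all libraries, the commonest ratio to sham was 0.90 in WI and 1.27 in IR. Only 8.96% and 9.38% of these genes lay at that ratio. As deposited, the median of all genes was 0.05 on the log2 scale in IR against sham, while the summed FPKM was 1.497 times higher. Counts and depth are not analysed here. From these tables log2(FPKM + 1) was compared between libraries over genes that reached FPKM 1 in any library. The pseudocount of 1 understates the change of low genes. SEs came from the bounds by the delta method. Columns were used as deposited, and loci starts were made 1-based. Rescaling to a common sum with and without Mup genes, by the median ratio and by the 75th percentile, pseudocounts, filters and a fold of 1.5 were the alternatives. Members and lists were chosen with earlier results of these data known. Named genes were all members, the 5 genes nearest to Gapdh, and a choice from each list that does not hold all of its highest genes. Some genes that the lists named are not reported here and are not in the lists' counts. Primers came from the study's list, promoters from RefSeq. Scripts (Python 3.11.15, numpy 2.4.6, pandas 2.3.3, matplotlib 3.10.9) were tested on simulated data.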

Additional observations from a re-analysis of the deposited data

How the results depend on the processing

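Of 81 recomputed values under the alternatives, 61 stayed within 0.2 on the log2 scale or 1.5 times for a count, 16 moved further and 4 changed sign. A count can stay while its gene changes: the 1 enzyme past 2-fold in IR against WI was Aldoa as deposited and Pklr with a common sum. The sign changes, all with IR, were the median of the 9 enzymes against WI (0.31 as deposited, -0.23 with a common sum, -0.0688 with a common sum without Mup genes), their median against sham (0.51, and -0.0711 with a common sum) and Gapdh against WI (0.46, and -0.0829 with a common sum). Without Mup genes Gapdh against WI was 0.0803, Gapdh against sham 0.57 and the median against sham 0.0879. Gapdh against sham was 0.41 with a common sum and 0.77 with the 75th percentile, where the median was 0.28. The number higher in IR went from 8 to 2 (common sum) and 3 (without Mup genes) against WI, and from 9 to 4 and 5 against sham. With a fold of 1.5 the number past the threshold was 1 in WI against sham, 2 in IR against WI and 4 in IR against sham. It was 1 in IR against sham with a pseudocount of 0.1 or none, which was Aldoa, and 0 in IR against WI without Mup genes, an alternative that was chosen after seeing the data. No value of WI against sham changed sign or moved, apart from the count at 1.5-fold. Leaving out libraries was not possible with 1 per group. No paired analysis was possible because each group has 1 library.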

Other observations

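The routes that branch from glycolysis were measured in the same libraries. All 12 listed genes of the pentose phosphate pathway, of fructose entry and of the glycerol phosphate shuttle passed the filter, and 10 were higher in IR than in sham as deposited, beside 54.4% of all genes, and 4 after rescaling to a common sum, beside 18.2%. H6pd, the hexose-6-phosphate dehydrogenase of the endoplasmic reticulum, was the single gene past 2-fold as deposited, at an FPKM of 59.6 in sham (27.7 to 91.5), 66.1 in WI (30.1 to 102) and 136 in IR (53.1 to 219). H6pd was 1.18 ± 0.58 above sham in IR, where 7.5% of all genes were past 2-fold, or 0.60 after rescaling to a common sum. Its bounds overlapped. Gpd1, the cytosolic glycerol-3-phosphate dehydrogenase, which like Ldha restores NAD, was at 57.6, 55.6 and 105.4, and its IR value stayed 0.28 above sham after rescaling to a common sum. Khk, which phosphorylates fructose, was at 308, 351 and 359, and turned from 0.22 above sham in IR to -0.36 with that rescaling. G6pdx, the cytosolic entry to the pentose phosphate pathway, was low, at 3.29, 2.70 and 2.22.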
